A study of Mus musculus with 11 samples.

Results

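Positions that carried SA1 and SA2 in wild-type cells, and had no SA2 call in cells without SA1, are described here. They were chosen by peak calls in 3 lists from chromatin immunoprecipitation followed by sequencing (ChIP-seq). A wild-type SA1 peak entered when it overlapped a wild-type SA2 peak by at least 1 bp and overlapped no SA2 peak of SA1-null cells. Of 26602 wild-type SA1 peaks, 2503 met this rule, which is 9.41%, and nothing is read from that share because it is the choice itself. The other SA1 peaks were 2850 with SA2 called in both genotypes, 2909 with SA2 called in SA1-null cells only and 18340 with no SA2 peak in either genotype.

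Cohesin is a protein ring that holds sister chromatids together and extrudes chromatin loops, many of them anchored where the DNA-binding protein CTCF sits. SMC1 and SMC3 are long coiled-coil ATPases that form the body of every ring. SA1 and SA2 are alternative subunits that bind the ring's kleisin, one per ring, and take part in its loading and its stay on DNA. In somatic cells without SA1, a complete ring therefore carries SA2. An SMC1 or SMC3 peak marks a ring whatever SA protein it holds, so the 4 SMC lists, which took no part in the choice, are the readout here. They are not independent of the choice, since SA1 and SA2 belong to the same complexes as SMC1 and SMC3. A position chosen for calls of SA1 and SA2 in wild-type cells may have more SMC calls for that reason alone. A position chosen for lacking an SA1-null SA2 call may have fewer in the same way.

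The SA1-null group and the wild-type group were both mouse embryonic fibroblasts from embryos at E12.5 on a C57BL/6 x 129 Sv background, untreated and grown in medium with 20% serum. The SA1-null cells gave SA1, SA2, SMC1 and SMC3 lists, and the wild-type cells gave the same 4. Both input pools mixed the 2 genotypes. The labels give neither the construction of the null allele nor whether libraries came from separate embryos. Each list stands for 1 library, apart from the SA1-null SMC1 list. That list is filed with the first of 2 replicates while its name gives both, and it was taken to hold both, which the list itself cannot show. The lists hold coordinates only, so the labelled cell type could not be checked against markers and sequencing depth is unknown.

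List lengths set the frame for every share below. SA1-null cells gave 47003 SMC1, 34802 SMC3 and 6352 SA2 peaks. Wild-type cells gave 24000 SMC1, 15564 SMC3 and 7741 SA2 peaks. The SA1 antibody gave 177 peaks in SA1-null cells, against 26602 in wild-type cells. The lists of this antibody were called against different input pools in the genotypes. With 1 list per group, no test between genotypes was possible. Shares carry 95% Wilson intervals and differences of shares carry 95% Newcombe intervals, which cover the counting of peaks in these lists and no other error. A count of 0 carries, in place of an interval, the share that 3 counts would give. A position without a peak is one where none was called at this depth.

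In SA1-null cells the ring subunits were called at most of these positions, where SA2 was not. Positions with no SA2 peak in either genotype also mostly had them, with both subunits in SA1-null cells at 64.5%. In these cells SMC1 peaks far outnumbered SA2 peaks (47003 and 6352), so many ring calls must lack an SA2 call. A position with SMC peaks and no SA2 peak therefore does not show a ring without SA2. SMC1 of SA1-null cells had a peak at 2331 of the 2503 positions (93.1%, interval 92.1 to 94.1%), against 80.4% of all wild-type SA1 peaks. SMC1 of wild-type cells had a peak at 2082 (83.2%, interval 81.7 to 84.6%), against 65.6% of all SA1 peaks. SMC3 of SA1-null cells was called at 2281 positions (91.1%, interval 90.0 to 92.2%), with 75.7% over all SA1 peaks. SMC3 of wild-type cells was called at 1700 (67.9%, interval 66.1 to 69.7%), with 50.1% over all SA1 peaks. Each of the 4 shares stood above the share over the whole SA1 list. Both subunits had a peak at 2247 positions (89.8%) in SA1-null cells, against 73.3% of all SA1 peaks, and at 1658 (66.2%) in wild-type cells, against 48.5%.

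**Figure D1:**
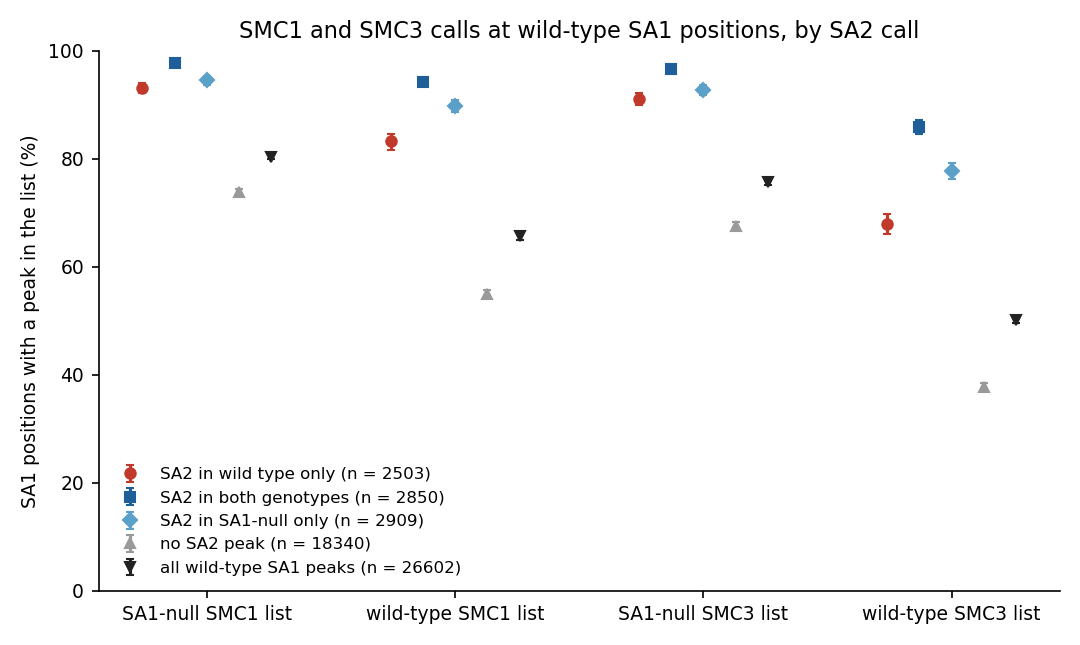
Share of wild-type SA1 positions (%, y axis) with a peak in each of the 4 SMC lists (x axis), for positions grouped by their SA2 calls and for all SA1 peaks, with 95% Wilson intervals as bars. The 2503 positions with SA2 in wild type only lie above the positions with no SA2 peak and below those with SA2 in both genotypes in every list, from 93.1% in the SA1-null SMC1 list to 67.9% in the wild-type SMC3 list.

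The positions with SA2 in wild type only had fewer SMC calls than the positions with SA2 in both genotypes. The compared positions were chosen for a further call of the same complexes, SA2 in SA1-null cells. A lower share at the wild-type-only SA2 positions may therefore follow from the choice alone, which was not tested. For SA1-null SMC1 the shares were 93.1% and 97.7%, a difference of -4.56 percentage points (interval -5.72 to -3.44). For wild-type SMC1 they were 83.2% and 94.3%, a difference of -11.1 points (interval -12.8 to -9.45). The gap was widest for wild-type SMC3, with 67.9% and 85.9% (difference -17.9 points, interval -20.2 to -15.7). For SA1-null SMC3 the shares were 91.1% and 96.7% (difference -5.54 points, interval -6.86 to -4.26). The size of the gap in the SA1-null lists changed when these lists were cut to their widest peaks. With both lists of a subunit brought to equal length in this way, it was -14.2 points for SA1-null SMC1 and -16.8 points for SA1-null SMC3. The cut is by width and removed SA1-null peaks only. Those peaks were narrower with SA2 in wild type only, at medians of 592 against 640 bp (SMC1) and 691 against 739 bp (SMC3). List length and width cannot be told apart in this change. On the 19 autosomes taken singly, the share was lower for wild-type-only SA2 on 19 for each SMC3 list and on 18 for each SMC1 list.

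Set against SA1 positions with no SA2 peak, the order was the other way round. The shares of the wild-type-only SA2 positions were higher by 19.4 points for SA1-null SMC1 (interval 18.1 to 20.5) and by 28.2 points for wild-type SMC1 (interval 26.6 to 29.8). For SMC3 they were higher by 23.5 points in SA1-null cells (interval 22.1 to 24.7) and by 30.2 points in wild-type cells (interval 28.2 to 32.2). All 19 autosomes showed this order in all 4 lists.

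Positions whose SA2 call came from SA1-null cells only lay closer. Against these, the wild-type-only SA2 positions differed by -1.37 points for SA1-null SMC1 (interval -2.68 to -0.0878) and by -1.68 points for SA1-null SMC3 (interval -3.16 to -0.236). On 7 and 5 of the 19 autosomes the wild-type-only SA2 positions had the higher share in these lists. These small differences changed sign with SA1 peak width, whose median was 571 bp with SA2 in wild type only and 622 bp with SA2 in SA1-null only. Standardised over 10 classes of SA1 width they were 0.616 points for SMC1 and 0.617 points for SMC3, and within the classes the shares were lower in 5 and higher in 5 for each list. At equal list length, with only the widest SA1-null peaks kept, they were -7.32 and -8.88 points. In the wild-type lists the differences were larger, at -6.54 points for SMC1 (interval -8.39 to -4.71) and -9.91 points for SMC3 (interval -12.3 to -7.54). Standardised over SA1 width they were -3.91 and -6.50 points, with the lower share in 7 of 10 classes for wild-type SMC1 and 10 of 10 for wild-type SMC3.

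Most SMC calls of wild-type cells at these positions were also in the SA1-null lists, at shares close to those of the SA1 list as a whole. Of the 2082 positions with wild-type SMC1, 2060 also had SA1-null SMC1 (98.9%, interval 98.4 to 99.3%), against 98% over all SA1 peaks. The share was 99.6% at positions with SA2 in both genotypes, 98.9% at positions with SA2 in SA1-null only and 97.2% at positions with no SA2 peak. Of the 1700 positions with wild-type SMC3, 1693 also had SA1-null SMC3 (99.6%, interval 99.2 to 99.8%), against 98.9% over all SA1 peaks. These shares rest on the longer SA1-null lists, and equal length was reached by keeping only the widest SA1-null peaks. At equal list length 70.4% of the wild-type SMC1 calls and 64.4% of the wild-type SMC3 calls were also in SA1-null cells, against 66.2% and 62.5% over all SA1 peaks.

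Calls in a single genotype ran almost wholly one way. SMC1 was called in SA1-null cells only at 271 positions (10.8%, against 16.1% of all SA1 peaks) and in wild-type cells only at 22 (0.879%, against 1.28%). SMC3 was called in SA1-null cells only at 588 positions (23.5%, against 26.2% of all SA1 peaks) and in wild-type cells only at 7 (0.280%, against 0.549%). Of the positions where the genotypes disagreed, 92.5% for SMC1 and 98.8% for SMC3 had the SA1-null call, close to 92.6% and 97.9% over all SA1 peaks. The SA1-null share exceeded the wild-type share by 9.95 points for SMC1 and 23.2 points for SMC3, against 14.8 and 25.6 points over all SA1 peaks. The longer SA1-null lists move with this direction. When the lists of a subunit were brought to equal length by keeping the widest peaks, the direction turned. This cut removes SA1-null peaks only, so it can only lower the SA1-null shares, and it does not equalise depth. The turn is therefore no measure of a difference between the genotypes. SMC1 was then at 62.1% of the positions in SA1-null cells and 83.2% in wild-type cells, and SMC3 at 50.7% and 67.9% in the same order of genotypes, differences of -21.1 and -17.3 points. Over all SA1 peaks it turned likewise, to 48.7% and 65.6% for SMC1 and 39.3% and 50.1% for SMC3.

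Taken by combination, 1652 of the 2503 positions were in all 4 SMC lists (66.0%, interval 64.1 to 67.8%), against 48.1% of all SA1 peaks. That share was 85.0% at positions with SA2 in both genotypes, 76.6% with SA2 in SA1-null only and 35.4% with no SA2 peak. On all 19 autosomes it was below the positions with SA2 in both genotypes and above those with no SA2 peak. The second most frequent combination, at 381 positions (15.2%, against 14.7% of all SA1 peaks), lacked only wild-type SMC3. A further 174 positions had SMC1 and SMC3 in SA1-null cells and neither in wild-type cells (6.95%, interval 6.02 to 8.02%), against 9.18% of all SA1 peaks. The reverse, both subunits in wild-type cells and neither in SA1-null cells, was found at 0 of the 2503 positions, which allows a share of up to 0.120% (3 counts), a limit that takes in the 0.0677% found over all SA1 peaks. At 127 positions no SMC list had a peak (5.07%, interval 4.28 to 6.00%), against 16.3% of all SA1 peaks.

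**Figure D2:**
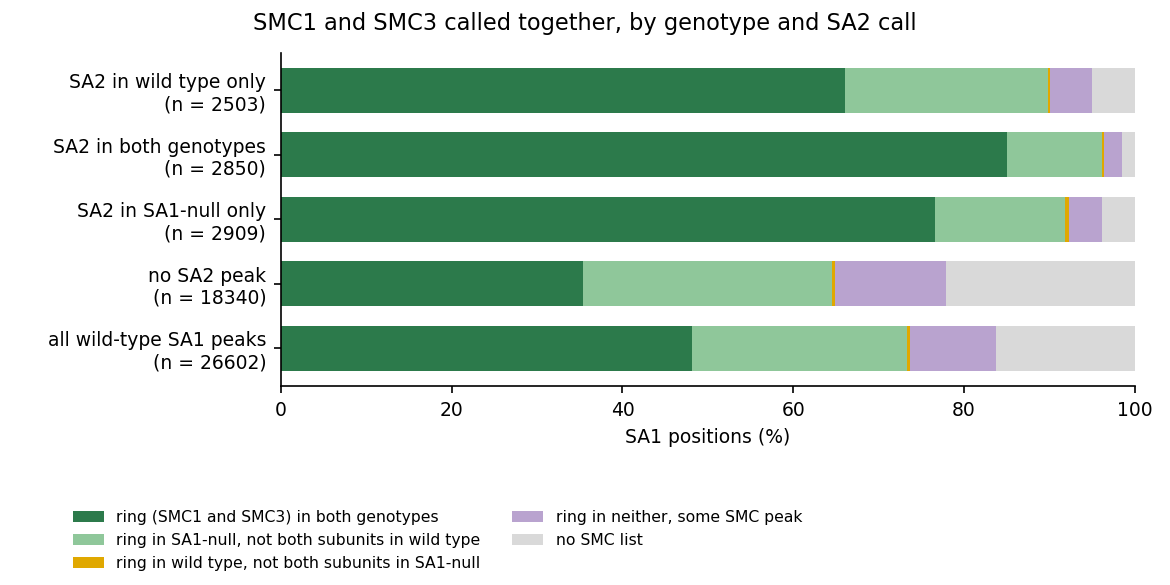
Share of SA1 positions (%, x axis) by whether SMC1 and SMC3 were called together in each genotype, one bar per class of SA2 call and one for all SA1 peaks. At the positions with SA2 in wild type only, 66.0% had both subunits in both genotypes, 23.8% had both in SA1-null cells but not in wild-type cells, and 0.240% had the reverse.

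When a single ring subunit was called, it was mostly SMC1, at these positions as over all SA1 peaks. In SA1-null cells 84 of the positions had SMC1 without SMC3 (3.36%) and 34 had SMC3 without SMC1 (1.36%), against 7.15% and 2.45% of all SA1 peaks. In wild-type cells the numbers were 424 (16.9%) and 42 (1.68%), against 17.1% and 1.60%. The SMC3 list was shorter than the SMC1 list in both genotypes. Where a list had no overlapping peak, a near one was rare, here as at positions with no SA2 peak. A peak within 1 kb was found for 5.23% of the 172 positions without SA1-null SMC1 and for 1.66% of the 421 without wild-type SMC1. For SMC3 it was found for 5.41% of the 222 positions without an SA1-null peak and for 2.12% of the 803 without a wild-type peak. At positions with no SA2 peak these shares were somewhat higher. They were 8.23% (SA1-null) and 6.15% (wild type) for SMC1, and 7.37% and 4.02% for SMC3. Median gaps to the nearest peak ran from 22.2 kb for SA1-null SMC1 to 37.3 kb for wild-type SMC3. At positions with no SA2 peak they ran from 17.3 kb to 39.1 kb for the same lists.

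The ring peaks lay centrally on the SA1 peaks, here as over all SA1 peaks. The median offset between peak centres was 49 bp for SA1-null SMC1 and 48 bp for wild-type SMC1. It was 44 bp for SMC3 in either genotype. Over all SA1 peaks it was 50 bp (SA1-null) and 46 bp (wild type) for SMC1, and 48 and 44 bp for SMC3. SMC1 centres lay within 100 bp of the SA1 centre at 82.5% (SA1-null) and 86.1% (wild type) of the positions that had the peak. SMC3 centres did so at 83.9% (SA1-null) and 87.8% (wild type). Over all SA1 peaks the shares were 80.6% and 83.8% for SMC1 and 81.8% and 85.9% for SMC3. SA2, a subunit of the same complexes, had a median offset of 56 bp in wild-type cells, and so it did at positions with SA2 in both genotypes.

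Peak widths, the only other quantity in the lists, were intermediate at these positions. SA1 peaks had a median width of 571 bp, against 642 bp at positions with SA2 in both genotypes and 498 bp at positions with no SA2 peak. Wild-type SA2 peaks had a median of 473 bp, against 505 bp at positions with SA2 in both genotypes. These widths belong to lists the choice used and are a description. The SMC peaks showed the same order. For SA1-null SMC1 the medians were 592 bp with SA2 in wild type only, 640 bp with SA2 in both genotypes and 543 bp with no SA2 peak. For wild-type SMC3 they were 576, 612 and 547 bp in the same order of classes. Positions with SA2 in SA1-null only were intermediate too, so this place is not particular to the wild-type-only SA2 positions. Their medians were 622 bp for SA1, 617 bp for SA1-null SMC1 and 600 bp for wild-type SMC3.

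**Figure D3:**
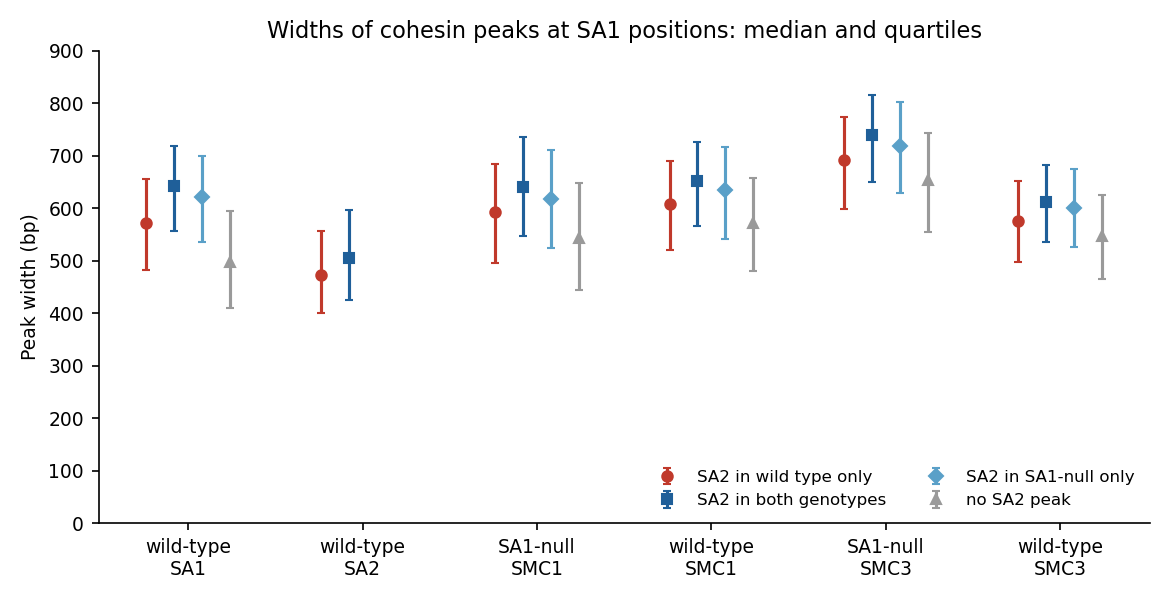
Peak width (bp, y axis) at SA1 positions for 6 lists (x axis), shown as the median with the lower and upper quartile for each class of SA2 call. The points for SA2 in wild type only lie between those for SA2 in both genotypes and those for no SA2 peak in each list that has all 3 classes, for example at 571, 642 and 498 bp for SA1. Those for SA2 in SA1-null only lie between them too, at 622 bp for SA1.

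Between genotypes, the width of a position's SMC1 peak was alike in the median and that of its SMC3 peak was not. At the 2060 positions with SMC1 in both genotypes, the SA1-null width divided by the wild-type width had a median of 0.999 (quartiles 0.863 and 1.16), and 1025 of the peaks (49.8%) were wider in SA1-null cells. At the 1693 positions with SMC3 in both, the median ratio was 1.24 (quartiles 1.08 and 1.43), and 1467 peaks (86.7%) were wider in SA1-null cells. Over all SA1 peaks the medians were 1.0 and 1.24, and 50.2% and 87.3% of peaks were wider. The values at the wild-type-only SA2 positions were therefore close to those over all SA1 peaks with the subunit called in both genotypes.

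SMC calls varied among the positions with the width of their SA peaks, as they did with SA1 width over all SA1 peaks. In the narrowest 25% by SA1 width (234 to 482 bp), 50.6% were in all 4 SMC lists (interval 46.7 to 54.5%), and in the widest 25% (655 to 2250 bp) 76.7% were (interval 73.2 to 79.8%). By wild-type SA2 width the same shares were 60.6% (211 to 400 bp) and 74.2% (557 to 2416 bp). Wild-type SMC3 differed most between these ends, at 53.5% in the narrowest and 78.1% in the widest 25% by SA1 width. SA1-null SMC1 was at 88.5% and 96.5%. All SA1 peaks were cut more finely, into 10 classes of width. There wild-type SMC3 ran from 24.6% in the narrowest class to 74.6% in the widest, and SA1-null SMC1 from 58.2% to 94.5%. Among the wild-type-only SA2 positions, the distance between SA1 and SA2 centres gave no such gradient. There 65.4% were in all 4 lists in the nearest 25% and 65.3% in the farthest.

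The gap to the positions with SA2 in both genotypes persisted within classes of SA1 width for the wild-type lists. With all SA1 peaks cut into 10 classes of width, wild-type SMC1 and wild-type SMC3 were each less frequent at wild-type-only SA2 positions in 10 of 10 classes. For SA1-null SMC1 and SMC3 this held in 8 of 10 classes each. Against positions with no SA2 peak, the shares were higher in 10 of 10 classes for all 4 lists. Standardised to the widths of the wild-type-only SA2 positions, the differences from positions with SA2 in both genotypes came to -3.28 points for SA1-null SMC1, against -4.56 without standardisation, and to -15.2 points for wild-type SMC3, against -17.9.

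**Figure D4:**
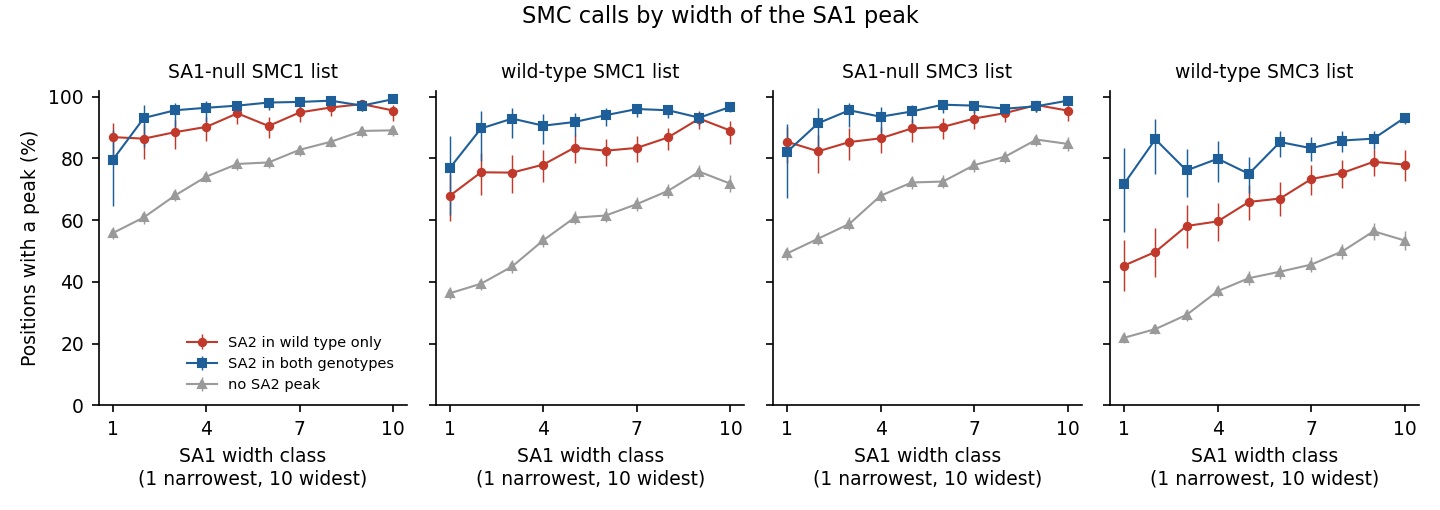
Share of SA1 positions with a peak (%, y axis) by class of SA1 peak width (x axis, 10 classes over all SA1 peaks), one panel per SMC list, with 95% Wilson intervals. The line for SA2 in wild type only stays above that for no SA2 peak in all 10 classes of every panel and below that for SA2 in both genotypes in 10 of 10 classes of the wild-type panels and 8 of 10 of the SA1-null panels.

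Few positions were near the edge of the rule. The smallest gaps to an SA1-null SA2 peak were 54, 135, 206, 237 and 252 bp, and 13 of the 2503 positions (0.519%) had one within 500 bp. Just outside, the smallest overlaps with an SA1-null SA2 peak among positions with SA2 in both genotypes were 10, 41, 44, 59 and 107 bp. On the wild-type side, the smallest overlaps with an SA2 peak among the positions kept were 7, 13, 14, 17 and 25 bp, and 6 positions overlapped by under 100 bp, with a median over all of 422 bp. SA1 peaks with no SA2 that came nearest to a wild-type SA2 peak missed it by 1, 10, 23, 24 and 29 bp. An SA1-null SA2 peak lay within 10 kb of 197 positions (7.87%), against 10.5% of positions with no SA2 peak. The median gap was 89.9 kb, against 99.8 kb at positions with no SA2 peak.

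Each position had, with few exceptions, a wild-type SA2 peak of its own. The 2503 positions took in 2503 wild-type SA2 peaks, of which 4 lay at more than 1 position. None of these SA2 peaks overlapped an SA1-null SA2 peak beyond the SA1 interval.

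The positions were spread over all chromosomes and mixed with the other SA1 peaks. They made up 9.45% ± 1.47 of the SA1 peaks of a chromosome (SD over 19 autosomes), from 6.83% on chromosome 3 to 13% on chromosome 19, and 10.7% on chromosome X. Their nearest SA1 neighbour was itself such a position in 10.2% of cases, against 9.18% for all SA1 peaks, and had SA2 in both genotypes in 10.4%, against 10.6%. The median distance to that neighbour was 18.4 kb, against 17.6 kb for all SA1 peaks. Consecutive positions lay a median of 412 kb apart, against 424 kb for positions with SA2 in both genotypes. In windows of 1 Mb, 1283 of the 2412 windows with an SA1 peak held at least 1 position, and 61 held 5 or more.

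Chromosome X stood apart in the SA2 calls. Of the 104 SA1 peaks on X with wild-type SA2, 82 had no SA1-null SA2 peak (78.8%, interval 70 to 85.6%), against 46.1% on the autosomes (interval 44.8 to 47.5%), where single chromosomes ran from 38.8% to 53.6%. These shares come from the lists that chose the positions. Among the 82 X positions, SA1-null SMC1 was at 87.8% (interval 79 to 93.2%), against 93.3% of the autosomal ones, and wild-type SMC1 at 73.2% (interval 62.7 to 81.6%), against 83.5%. SA1-null SMC3 was at 89.0% (interval 80.4 to 94.1%), against 91.2%, and wild-type SMC3 at 50% (interval 39.4 to 60.6%), against 68.5%. The X interval took in the autosomal share for SA1-null SMC3, ended just below it for SA1-null SMC1 and stayed below it for both wild-type lists. On the lowest autosome the share was 88.0% for SA1-null SMC1, 77.8% for wild-type SMC1, 86.1% for SA1-null SMC3 and 59.6% for wild-type SMC3. In all 4 SMC lists were 48.8% of the X positions, against 56.2% on the lowest autosome. Of the 22 X positions with SA2 in both genotypes, 77.3% were, against 75.3% on the lowest autosome. Shares over all SA1 peaks of X are not given, and whether the lower X shares are particular to these positions was not tested.

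**Figure D5:**
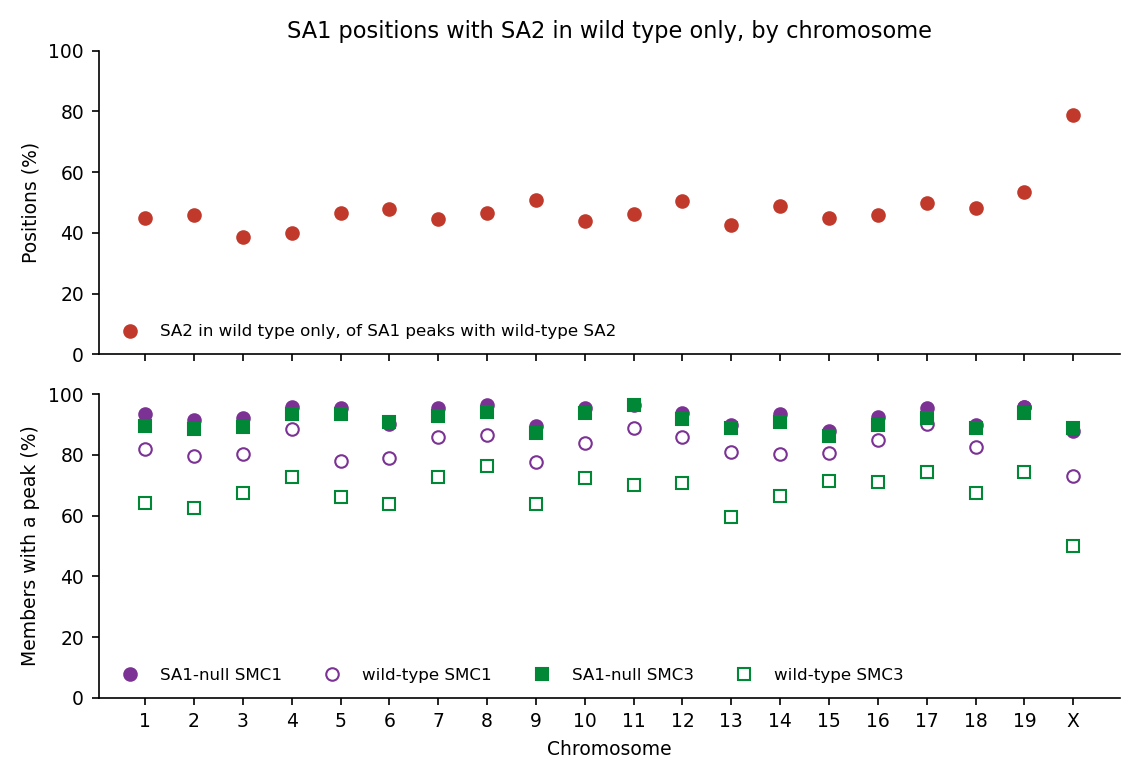
Top: share of SA1 peaks with wild-type SA2 that had no SA1-null SA2 peak (%, y axis) by chromosome (x axis), at 78.8% on X and between 38.8% and 53.6% on the autosomes. Bottom: share of the positions with SA2 in wild type only (%, y axis) that had an SMC1 or SMC3 peak in SA1-null cells (filled) and wild-type cells (open), with wild-type SMC3 lowest on X at 50%.

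As examples chosen for broad peaks, the 5 positions in all 4 SMC lists with the highest mean width percentile were chr1:90183387-90185128, chr11:100143113-100144434, chr10:39978213-39979423, chr7:139847747-139848104 and chr11:98900879-98901427 (mm9). At the chromosome 1 position the SMC1 peak was 1410 bp wide in SA1-null cells and 1538 bp in wild-type cells, and the SMC3 peak 1973 and 1901 bp in that order of genotypes. Its wild-type SA2 peak, at 2416 bp, was the widest of all 2503 positions, and the nearest SA1-null SA2 peak lay 68.8 kb away. At the chromosome 10 position SMC1 was 1375 bp wide in SA1-null cells and 1371 bp in wild-type cells, and the nearest SA1-null SA2 peak was 45.6 kb away.

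The next widest wild-type SA2 peaks were at 4 other positions, all of them in all 4 SMC lists. They were chr8:73345496-73345927 and chr8:122128895-122129530, chr12:51052543-51053148 and chr6:52551089-52551652. In that order, SA2 spanned 1025, 994, 984 and 913 bp. The nearest SA1-null SA2 peaks lay 51.6, 70.7, 559 and 344 kb away.

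Of the 174 positions with SMC1 and SMC3 in SA1-null cells and neither in wild-type cells, the 5 with the widest ring peaks were chr18:68145637-68146169, chr11:56187681-56188562, chr3:152231661-152232585, chr10:58971766-58972492 and chr18:8896699-8897267. Their SA1-null SMC1 peaks were 1421, 1234, 1474, 1194 and 994 bp wide. Their SA1-null SMC3 peaks were 1365, 1313, 1202, 988 and 1025 bp wide. The 174 positions had narrower SA peaks than those in all 4 lists, with medians of 541 and 594 bp for SA1 and 447 and 484 bp for SA2.

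The 127 positions in no SMC list had a median SA1 width of 502 bp. The widest 5 of them were chr14:94289080-94289935, chr6:70659304-70660116, chr9:104476690-104477472, chr3:149107911-149108688 and chr7:28086945-28087714, with SA1 peaks of 856, 813, 783, 778 and 770 bp.

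Positions in the control lists were few and mostly without a ring call. The SA1-null SA1 list reached 5 of the 2503 positions (0.200%, interval 0.0854 to 0.467%), against 0.0451% of all SA1 peaks, and none of the 5 was in an SMC list. The InputMEFs list reached 7 (0.280%, interval 0.136 to 0.576%), against 0.184% of all SA1 peaks, and the Input list 0, which allows up to 0.120%, against 0.0376%. Both are near the share over the whole list. Of the 12 positions reached in all, 2 were in all 4 SMC lists. The SMC lists were called against InputMEFs, and the lists behind the rule against Input. A position with a peak in an input pool is less likely to be called against that pool. The missing ring calls at InputMEFs intervals and the count of 0 for Input may follow from this, which was not tested. A single stretch of 67.2 kb, chr9:100787662-100854896, held 4 of the 5 positions in the SA1-null SA1 list, and was singled out after its values were seen. It contained 7 SA1-null SA1, 6 SA1-null SA2, 2 SA1-null SMC1 and 1 SA1-null SMC3 intervals. In wild-type cells it contained 11 SA1, 8 SA2, 1 SMC1 and 1 SMC3 intervals, and neither input list had one there. At these 4 positions the SA1 antibody thus gave a peak in cells labelled SA1-null, and the part of this in their SA2 calls was not tested. Whether the stretch lies in or near Stag1, the gene that encodes SA1, was not tested either, since no mm9 annotation was used here.

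The 5 windows of 1 Mb with the most positions were chr7:17000001-18000000 and chr17:35000001-36000000, with 10 each, and chr2:32000001-33000000, chr4:43000001-44000000 and chr10:127000001-128000000, with 9 each. A pair of windows on chromosome 19 also held 9 and came later only by chromosome order. In the chromosome 7 window, 10 of 25 SA1 peaks were such positions (40.0%), 8 of them in all 4 SMC lists, and 2 SA1 peaks had SA2 in both genotypes. In the chromosome 17 window, 10 of 40 SA1 peaks were (25%), 7 of them in all 4 lists, and 4 SA1 peaks had SA2 in both genotypes.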

How the data were processed

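The authors deposited 10 interval lists with a chromosome, a start and an end, and no score, height or p-value. The submitters' processing notes name mm9 and CASAVA 1.7, and intervals reached past the last gene of a GRCm38.p6 gene table on 10 of 20 chromosomes. Neither the aligner nor the peak caller is stated in the labels or the lists. The deposited names state a false discovery rate of 10 (read as percent). They show that the 3 lists behind the rule were called against the Input pool, and the SMC lists and SA1-null SA1 against InputMEFs. An mm9 annotation or genome was not used here, so genes and sequences are not given.

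Intervals were compared in Python 3.11.15 with numpy 2.4.6 and scipy 1.17.1, and drawn with matplotlib 3.10.9. Overlap counts of the SA1 list with the 9 other lists equalled those of bedtools 2.31.1, and the functions were tested on simulated data. Where several peaks overlapped, the widest was used. Starts are printed 1-based. Positions are named by the widest peaks of each ring state, the widest SA2 peaks and the fullest windows. The positions, classes and alternatives were chosen with earlier results of these data known. Alternatives changed the overlap, the gap to SA1-null SA2, background intervals, chromosome X, merging of peaks, list lengths and width classes.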

Additional observations from a re-analysis of the deposited data

How the results depend on the processing

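The number of positions was 2497 when overlaps had to cover 50% or more of the shorter interval, 2490 and 2483 with no SA1-null SA2 peak within 500 and 1000 bp, 2491 without intervals at control lists, 2421 without chromosome X, 2469 with SA1 peaks closer than 1000 bp merged and 2056 with both SA2 lists at 6352 peaks. Under these 7 alternatives the 4 SMC shares stayed within their main intervals. Of 103 values in all, 74 stayed within their main interval or, for the number of positions, within 1.5 times the main count, and 4 changed sign. Among the positions in the wider 50% of SA1 peaks (1518), the shares were 95.1% for SA1-null SMC1, 87.0% for wild-type SMC1, 94.2% for SA1-null SMC3 and 74.6% for wild-type SMC3, and the SA1-null minus wild-type differences were 8.10 points for SMC1 and 19.6 for SMC3. With the SMC lists at equal length, the SA1-null shares were 62.1% for SMC1 and 50.7% for SMC3, since this alternative removes SA1-null peaks. The SA1-null minus wild-type differences changed sign with it, to -21.1 points for SMC1 and -17.3 for SMC3. The differences from positions with SA2 in both genotypes were then -14.2 points (SA1-null SMC1) and -16.8 points (SA1-null SMC3), those from positions with no SA2 peak 22.8 and 20.5 points, and those from positions with SA2 in SA1-null only -7.32 and -8.88 points. Of the wild-type calls, 70.4% for SMC1 and 64.4% for SMC3 were then also in SA1-null cells.

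Standardised over classes of SA1 width, the differences from positions with SA2 in both genotypes were -3.28 points for SA1-null SMC1, -4.18 for SA1-null SMC3 and -15.2 for wild-type SMC3. Those from positions with no SA2 peak were 14.2 points for SA1-null SMC1, 21.9 for wild-type SMC1, 17.7 for SA1-null SMC3 and 24.8 for wild-type SMC3. Those from positions with SA2 in SA1-null only changed sign for the SA1-null lists, to 0.616 points for SMC1 and 0.617 for SMC3, and were -3.91 and -6.50 for wild-type SMC1 and SMC3. All alternatives to the genotype difference, to the calls shared by the genotypes and to the difference from SA2 in SA1-null only, equal length of the SA2 lists, classes of SA2 width and, for the differences, equal SMC lists and removal of X were added after the data were seen. Leaving out a replicate was not run, since no list is of 1 replicate among several. No paired analysis was possible because each group has 1 list. Depth is unknown, and keeping the widest peaks does not equalise it.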
